A study of Mus musculus with 4 samples.

Results

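Chromatin accessibility was examined around 10 imprinted genes, Snrpn, Peg3, Igf2r, Igf2, Plagl1, Mest, Peg10, Grb10, Nnat and Cdkn1c, in mpkCCD clone 11 cells, a single cultured clone with features of the mouse cortical collecting duct. The assay was ATAC-seq, in which a transposase inserts adapters into exposed DNA and sites with many insertions are called as peaks. Overlapping peaks of the 4 libraries (1 bp or more) were joined into merged regions, and those in a gene body or within 50 kb of it were taken as belonging to that gene. This gave 339 of the 560228 merged regions of the series (0.0605%), in windows that add up to 1779 kb, around 10 of 21887 protein-coding genes. The 2 dDAVP libraries came from cells treated for 30 minutes with dDAVP (0.1 nM), an analog of vasopressin that acts on the V2 receptor, and the 2 vehicle libraries from cells given the vehicle for the same time. All cells, at passage 8 to 10, had been maintained with insulin, dexamethasone, triiodothyronine and epidermal growth factor, were grown to confluence on permeable supports and were changed to serum-free medium lacking hormones before treatment. Each library was made from 50000 cells. Whether the libraries of a treatment are separate cultures is not in the labels, and p-values then measure only the spread between these libraries, which may be technical.

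The peak lists held 291454 and 205771 peaks in dDAVP replicates 1 and 2, and 393956 and 206972 peaks in vehicle replicates 1 and 2, so the longest list, that of vehicle replicate 1, was 1.91 times the shortest. The lists give positions alone and the number of reads behind them is unknown, and absence of a peak means that none was called there, which does not show the DNA to be closed. A peak also cannot tell a site open in fewer cells from one less open in each cell, nor a site open on a single parental chromosome from one open on both. Collecting duct markers had a peak within 1 kb of the gene start in all 4 libraries at 8 of 11 genes (72.7%). The share of all protein-coding genes was 64.3%. The widest of these marker peaks were at Krt8 (2334 bp on average), Cdh1 (1544 bp), Gata3 (1321 bp) and Scnn1a (1200 bp). Aqp3 had such a peak in only 1 library, and Scnn1b and Avpr2, the V2 receptor gene, in 2 libraries each. Markers of podocytes, other nephron segments, endothelium, stroma and leukocytes had one in all 4 at 1 of 12 (8.33%), the proximal tubule receptor Lrp2. C1qa, Col3a1, Nphs1, Ptprc, Slc12a1 and Umod had none in any library.

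Imprinted genes are transcribed mainly from the chromosome inherited from a single parent. The choice is carried by DNA methylation that is set in the egg or the sperm at control regions, which are often CpG-rich promoters, and kept after fertilisation by the zinc-finger protein ZFP57 and its cofactor TRIM28 on the methylated copy. At several loci a control region is the promoter of a long noncoding RNA that is made from the unmethylated copy and keeps neighbouring genes silent in cis, as Airn does at Igf2r and Kcnq1ot1 does in the domain of Cdkn1c. Many imprinted genes act on fetal growth. Snrpn, Peg3, Igf2, Plagl1, Mest, Peg10 and Nnat are known as paternally expressed in mouse, and Igf2r, Grb10 and Cdkn1c as maternally expressed in most tissues.

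The sequences around 8 gene starts are shown because the members divided there: a CpG-rich start with a peak in every library, CpG-poor starts with peaks, and starts called in some libraries alone. Each run covers 250 bases before the start and 50 after it, from RefSeq on GRCm38.p6 (the assembly behind mm10), read 5′ to 3′ on the strand of the gene. The positions are chr11:12037371-12037670 for Grb10 (minus strand), chr17:12769657-12769956 for Igf2r (minus), chr10:13090582-13090881 for Plagl1 (plus), chr17:12741061-12741360 for Airn (plus), chr7:60005150-60005449 for Snrpn (minus), chr6:30737800-30738099 for Mest (plus), chr2:157559828-157560127 for Nnat (plus) and chr7:6730370-6730669 for Peg3 (minus). Capitals mark matches to TGCCGC, the hexamer that ZFP57 binds when methylated, to CGCATGCG, a core site of the methylation-sensitive activator NRF1, or to TGACGTCA, the full cAMP response element, on either strand. The hexamer reads GCGGCA on the opposite strand, the other motifs read the same on both, and no match overlapped another.
Grb10 outer start: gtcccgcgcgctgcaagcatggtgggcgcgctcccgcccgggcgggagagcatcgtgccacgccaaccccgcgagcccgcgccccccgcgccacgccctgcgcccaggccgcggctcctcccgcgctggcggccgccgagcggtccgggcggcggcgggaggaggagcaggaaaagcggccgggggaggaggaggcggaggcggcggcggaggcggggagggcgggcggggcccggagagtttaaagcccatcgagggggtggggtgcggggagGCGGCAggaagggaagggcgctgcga
Igf2r start: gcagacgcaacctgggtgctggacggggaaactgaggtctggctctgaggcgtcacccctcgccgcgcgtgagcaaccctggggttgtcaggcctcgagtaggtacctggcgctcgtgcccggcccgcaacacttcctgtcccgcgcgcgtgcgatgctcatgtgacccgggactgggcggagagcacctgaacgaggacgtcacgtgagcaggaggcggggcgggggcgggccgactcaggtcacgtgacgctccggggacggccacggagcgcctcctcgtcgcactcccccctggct
Plagl1 start: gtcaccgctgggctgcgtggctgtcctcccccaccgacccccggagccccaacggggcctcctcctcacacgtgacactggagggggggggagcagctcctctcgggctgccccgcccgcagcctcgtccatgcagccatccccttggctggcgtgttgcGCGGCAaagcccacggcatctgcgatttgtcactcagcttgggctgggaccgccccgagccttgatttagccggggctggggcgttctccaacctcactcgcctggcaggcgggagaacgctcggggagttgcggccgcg
Airn start: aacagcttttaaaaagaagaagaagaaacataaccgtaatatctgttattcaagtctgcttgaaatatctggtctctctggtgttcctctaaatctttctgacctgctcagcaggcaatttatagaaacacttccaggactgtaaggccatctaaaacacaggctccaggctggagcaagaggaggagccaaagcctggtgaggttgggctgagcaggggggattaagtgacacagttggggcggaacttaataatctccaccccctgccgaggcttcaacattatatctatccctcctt
Snrpn lowest start: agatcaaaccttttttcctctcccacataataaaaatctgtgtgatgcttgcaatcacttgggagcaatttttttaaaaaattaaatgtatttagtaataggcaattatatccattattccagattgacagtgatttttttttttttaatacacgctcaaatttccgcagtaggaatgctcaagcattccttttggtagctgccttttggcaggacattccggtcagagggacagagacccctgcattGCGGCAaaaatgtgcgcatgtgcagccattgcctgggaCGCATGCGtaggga
Mest inner start: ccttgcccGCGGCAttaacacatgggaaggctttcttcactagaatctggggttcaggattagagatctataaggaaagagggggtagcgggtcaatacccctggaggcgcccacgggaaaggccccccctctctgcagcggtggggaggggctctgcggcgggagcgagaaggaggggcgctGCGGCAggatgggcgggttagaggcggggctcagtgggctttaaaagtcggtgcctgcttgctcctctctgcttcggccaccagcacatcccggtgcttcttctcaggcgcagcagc
Nnat start: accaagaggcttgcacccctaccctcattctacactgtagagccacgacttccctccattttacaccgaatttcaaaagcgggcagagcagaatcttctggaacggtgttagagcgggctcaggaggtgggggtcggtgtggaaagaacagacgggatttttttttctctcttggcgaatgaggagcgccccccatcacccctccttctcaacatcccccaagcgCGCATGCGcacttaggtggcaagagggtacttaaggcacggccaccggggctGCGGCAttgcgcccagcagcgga
Peg3 start: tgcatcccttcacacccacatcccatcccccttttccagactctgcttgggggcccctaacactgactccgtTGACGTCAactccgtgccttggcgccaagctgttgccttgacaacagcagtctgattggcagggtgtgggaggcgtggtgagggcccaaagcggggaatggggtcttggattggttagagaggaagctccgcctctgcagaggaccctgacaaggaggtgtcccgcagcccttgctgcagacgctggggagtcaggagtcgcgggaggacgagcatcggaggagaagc

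Of 17 annotated starts of 8 members, counting a pair at Mest that lies 3 bp apart, 7 starts in 6 members held the hexamer TGCCGC, which occurs in 11.6% of 32851 mouse promoters of the same length and in 14.1% of those of protein-coding genes. It lies once at the starts of Grb10, Plagl1, Snrpn and Nnat shown above, while the inner Mest start holds 2 copies. CGCATGCG, found in 1.87% of all promoters (2.52% of protein-coding ones), was in 5 starts, all 4 of Snrpn and that of Nnat. The Snrpn starts other than the lowest share long stretches of sequence beside the match, so their matches are not independent of one another. TGACGTCA, found in 1.79% of all promoters (2.23%), was at Peg3 alone among the members. A match is a string of letters and not a shown binding site. The outer Grb10 start had 45 CpG dinucleotides in its 300 bases, Igf2r 34 and Plagl1 26, against a median of 22 in the 11680 protein-coding promoters with a peak over these bases in all 4 libraries. The inner Mest start and Nnat had 17 CpG and Peg3 had 13, the median of all protein-coding promoters. Snrpn had 7 and Airn 3, as few as the median of 3 in the 6222 promoters without a peak over these bases. A peak overlapped the printed bases in all 4 libraries at Grb10, Igf2r, Plagl1 and also at the CpG-poor Airn start. It did so in dDAVP replicate 1 and vehicle replicate 1 at Mest and Nnat, in dDAVP replicate 2 and vehicle replicate 1 at Snrpn, and in vehicle replicate 1 alone at Peg3.

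The first comparison asked which of the 10 genes had an accessible start under either treatment. A start peak, meaning a peak no more than 1 kb from an annotated start, was present in all 4 libraries at 5 of the 10 genes, Igf2r, Grb10, Plagl1, Mest and Snrpn, against 64.3% of all protein-coding genes and 62.5% of those on the same chromosomes. In single libraries 9 and 6 genes had such a peak after dDAVP and 10 and 7 after vehicle. Of the 21887 protein-coding genes 16021 and 14985 had one after dDAVP, and 16791 and 15147 after vehicle. The 5 genes without one in all libraries were Igf2, Cdkn1c, Peg3, Peg10 and Nnat, of which the first 3 lie on chromosome 7, where 43.8% of protein-coding genes had a start peak in all libraries. Peg10 and Cdkn1c have no annotated start in the table used here, so both outermost ends of the gene were taken. A window of 2.5 kb gave 8 of 10 genes, with Igf2, Peg10 and Nnat added, against 69.7% of protein-coding genes, and a window of 0.5 kb gave 3, with Snrpn and Mest lost, against 61.0%.

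**Figure D1:**
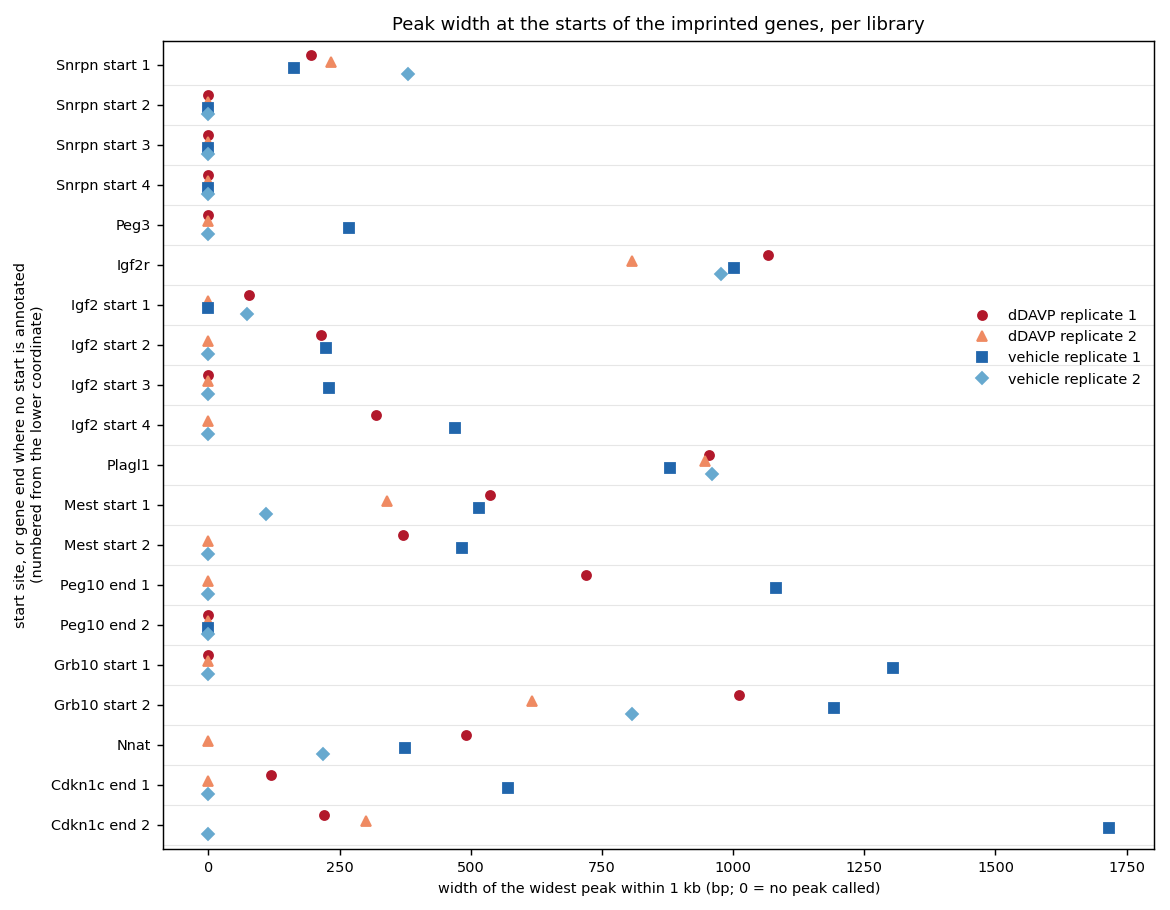
Width in bp of the widest peak within 1 kb of each annotated start of the 10 genes, or of each gene end at Peg10 and Cdkn1c, with 1 symbol per library and 0 where no peak was called. Igf2r, Plagl1 and the outer start of Grb10 (start 2) have wide peaks in every library, while at most other starts 1 or more libraries sit at 0.

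Among the genes of the insulin-like growth factor axis, Igf2r encodes the receptor that takes IGF2 up for degradation. At its start (chr17, position 12769706) the widest peak measured 1067 and 808 bp after dDAVP and 1001 and 976 bp after vehicle (963 ± 110 bp, SD, n = 4). The groups overlapped and all 4 peaks were wide. Inside the gene, the Airn start at position 12741311 had peaks of 1527 and 864 bp after dDAVP and 853 and 1030 bp after vehicle. Both starts were called in every library. In mouse the noncoding RNA and the receptor are known to be expressed from opposite parental copies. Igf2 encodes the growth factor itself and has 4 annotated starts, none with a peak in all libraries. At its most upstream start, position 142666816 on chromosome 7, the peak within 1 kb measured 320 and 0 bp after dDAVP and 470 and 0 bp after vehicle. These peaks belong to a region 872 bp from the start, chr7:142667688-142668157, that was present in all libraries. Its widths were 320 and 212 bp after dDAVP and 470 and 192 bp after vehicle, and its replicate 2 peaks lay beyond the 1 kb window. The start at 142658804 divided by replicate number, with 214 and 0 bp after dDAVP and 224 and 0 bp after vehicle. The start at 142661271 had a peak of 230 bp in vehicle replicate 1 alone, and that at 142657496 had peaks of 77 and 0 bp after dDAVP and 0 and 73 bp after vehicle.

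Grb10 encodes an adaptor protein that restrains signalling of the insulin and IGF1 receptors. Its outer start, position 12037420 on chromosome 11, had peaks of 1012 and 616 bp after dDAVP and 1192 and 808 bp after vehicle (907 ± 249 bp, SD, n = 4). In each treatment the replicate 1 peak was the wider. The inner start at 12027971, from which the paternal copy is known to be transcribed in mouse brain, had no peak over its 300 bases in any library. A region 998 bp from it, chr11:12025670-12026973, had 345 and 126 bp after dDAVP and 1304 and 0 bp after vehicle. Of these peaks only that of vehicle replicate 1 reached the 1 kb window. Cdkn1c encodes a cyclin-dependent kinase inhibitor that limits growth. At its upper end, position 143461059 on chromosome 7, peaks measured 221 and 301 bp after dDAVP and 1717 and 0 bp after vehicle, so the vehicle libraries lay on both sides of the dDAVP libraries. Its lower end had 120 and 0 bp after dDAVP and 571 and 0 bp after vehicle.

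Plagl1 and Peg3 encode zinc-finger transcription factors that hold back growth or promote cell death in cultured cells. The Plagl1 start at position 13090832 of chromosome 10, shared with the noncoding Hymai, whose start lies 13 bp away, was the most even of all, with peaks of 955 and 947 bp after dDAVP and 879 and 959 bp after vehicle (935 ± 37.7 bp, SD, n = 4). Peg3 was at the other end. Its start at 6730419 of chromosome 7, which Usp29 shares on the opposite strand, had a peak of 268 bp in vehicle replicate 1 and none in the other 3 libraries. All 4 regions of the Peg3 window were from that library, at chr7:6728018-6728140, chr7:6728503-6728840, chr7:6729522-6729593 and chr7:6730136-6730403, and all lay inside the gene, within 2279 bp of its start. Without vehicle replicate 1 the Peg3 locus had no region.

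Mest encodes a hydrolase-like protein of the endoplasmic reticulum and has an outer start and an inner one, which carries the CpG island methylated in the egg. The outer start, position 30733506 on chromosome 6, had peaks of 536 and 340 bp after dDAVP and 516 and 109 bp after vehicle. The inner start at 30738050 had 370 and 0 bp after dDAVP and 484 and 0 bp after vehicle, again a division by replicate number. Peg10, derived from a retrotransposon and needed for the placenta, shares its promoter with Sgce. Their common end, at 4747306 and 4747204 of chromosome 6, had a peak of 720 and 0 bp after dDAVP and 1082 and 0 bp after vehicle, in the same libraries as the inner Mest start. Within Peg10, at 1502 bp from that end, chr6:4748808-4749438 was present throughout, with widths of 286 and 531 bp after dDAVP and 588 and 631 bp after vehicle.

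Nnat, a small membrane proteolipid gene that lies within an intron of Blcap, had start peaks of 491 and 0 bp after dDAVP and 375 and 218 bp after vehicle at position 157560078 of chromosome 2. A region 1220 bp into the gene, chr2:157561298-157561854, was present in every library with 459 and 400 bp after dDAVP and 347 and 487 bp after vehicle. Snrpn encodes a spliceosomal protein and its promoter is the control region of a domain whose paternal copy is lost in human Prader-Willi syndrome. Of its 4 annotated starts only the lowest, position 60005199 of chromosome 7 and shared with Snurf, had peaks, of 196 and 234 bp after dDAVP and 164 and 381 bp after vehicle. The region in all libraries there was chr7:60004092-60004516, 683 bp inside the gene. The starts at 60047978, 60140225 and 60450177, each with a CGCATGCG match, had none in any library.

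Other imprinted genes and the proteins that keep imprints were read in the same way. Of all protein-coding genes, 64.3% had a start peak in all 4 libraries and 20.5% had one in no library. The shares of both lists of other imprinted genes in all libraries were near the first of these. Among 18 other paternally expressed genes, 10 had a start peak in all 4 libraries (55.6%), the widest on average at Zrsr1, a splicing factor gene (1336 bp), the noncoding Peg13 (1144 bp), Airn (1069 bp) and the Notch ligand-like Dlk1 (847 bp), and Ndn had none in any library. The start of Kcnq1ot1, outside the window of Cdkn1c, had peaks of 761 and 456 bp after dDAVP and 620 and 1179 bp after vehicle. Among 18 other maternally expressed genes, 12 had one in all libraries (66.7%), led by the tetraspanin gene Cd81 (1571 bp), the ubiquitin ligase gene Ube3a (1435 bp), the neuronal actin-binding Ppp1r9a (1366 bp) and Tssc4 (1285 bp). The noncoding H19 and Zim1 had none in any library. Of 18 genes for the setting and keeping of imprints 17 had one throughout (94.4%), led by the DNA methyltransferase Dnmt3a (2560 bp), the histone methyltransferase Ehmt2 (1667 bp), the insulator factor Ctcf (1619 bp) and the Polycomb enzyme Ezh2 (1557 bp). The exception was Dppa3, a factor of the egg that protects maternal marks, with no peak at either end. Whether any of these genes is expressed from a single parental copy in these cells was not measured, and imprinting can differ between tissues. The lists were chosen with earlier results of these data known and carry no test.

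The second comparison set the density of peaks around the 10 genes against the rest of their chromosomes. Over all windows, the number of peaks was 1.28 and 1.25 times that expected in the dDAVP libraries and 1.26 and 1.17 times in the vehicle libraries, a geometric mean of 1.24 and a mean log2 ratio of 0.31. All 4 libraries were above 1, which gives the smallest p that an exact two-sided sign-flip permutation test over 4 libraries allows (p = 0.125). Against windows of other protein-coding genes on these chromosomes the ratio was 1.07 and 1.06 in the dDAVP libraries and 1.06 and 0.981 in the vehicle libraries (geometric mean 1.04, exact permutation p = 0.25). Both p-values measure the spread between libraries read at the same windows, and not the spread between windows. The sums over all windows rest on the dense ones: 5 of the 10 lay below their chromosome in every library. The median window held 19 regions, with a median of 4 in all libraries, against 36 and 6 for all protein-coding genes. The median density was 141 regions per Mb for the 10 genes, against 275 per Mb for all protein-coding genes and 273 per Mb for those on the same chromosomes.

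**Figure D2:**
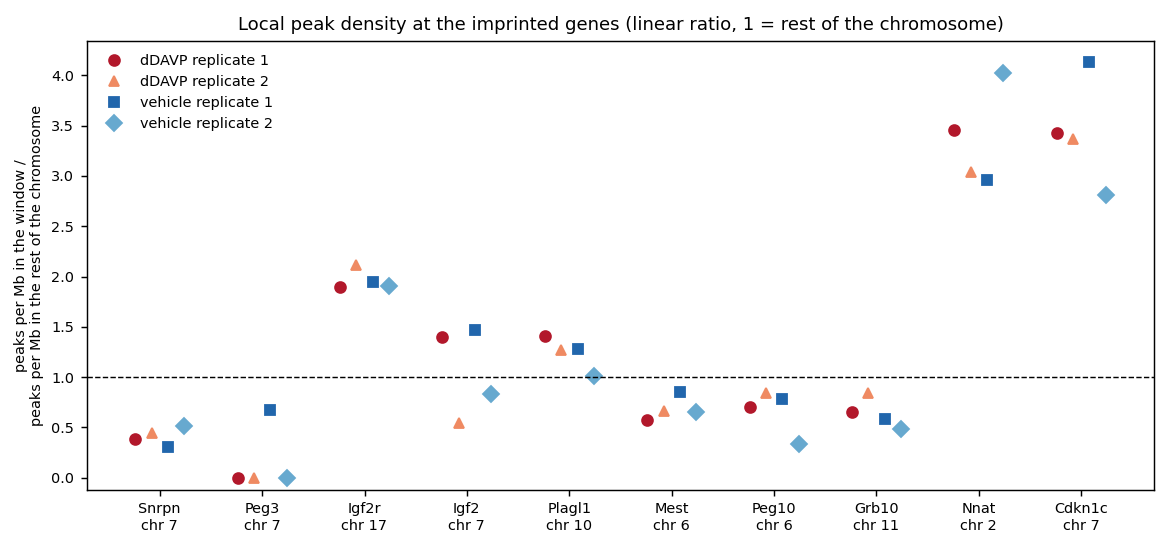
Peaks per Mb in each window divided by peaks per Mb in the rest of the same chromosome, on a linear axis with 1 symbol per library and a dashed line at equal density. The Cdkn1c and Nnat windows lie at 2.81 or above in every library, while Snrpn, Peg3, Mest, Peg10 and Grb10 lie below 1 in all of them. The rest of the chromosome held 66.6 regions per Mb for Cdkn1c and 228 per Mb for Nnat, so equal ratios do not mean equal densities.

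The windows ranged widely. Nnat had 61 regions, or 595 per Mb against 228 per Mb in the rest of chromosome 2, and more than 93.4% of the windows of all protein-coding genes. Its ratio of peaks was 3.46 and 3.04 in the dDAVP libraries and 2.96 and 4.02 in the vehicle libraries. Against the 5 Mb on each side of the window, a comparison chosen after the values were seen, the Nnat ratio was only 1.26 and 1.07 in the dDAVP libraries and 1.17 and 1.40 in the vehicle libraries, so the surroundings were dense as well. Cdkn1c, with 24 regions, had 234 per Mb against 66.6 in the rest of chromosome 7, and its ratio of peaks was 3.43 and 3.37 in the dDAVP libraries and 4.14 and 2.81 in the vehicle libraries. The rest of chromosome 7 was the sparsest of the chromosomes compared. The Cdkn1c window was denser than 88.3% of protein-coding windows on chromosome 7, but denser than only 44.8% of all protein-coding windows. It stood above its 5 Mb surroundings too, at 1.88 and 2.05 in the dDAVP libraries and 2.13 and 1.73 in the vehicle libraries. Igf2r held the most regions, 96, at 513 per Mb against 250.4 in the rest of chromosome 17, with ratios of 1.89 and 2.12 in the dDAVP libraries and 1.94 and 1.90 in the vehicle libraries, close together in all 4. Plagl1 held 69 regions, at ratios of 1.41 and 1.27 in the dDAVP libraries and 1.27 and 1.01 in the vehicle libraries.

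At the sparse end, Snrpn had 14 regions in a window of 568 kb, or 24.7 per Mb, and 6.38% of protein-coding windows were sparser. Its ratio was 0.382 and 0.443 in the dDAVP libraries and 0.299 and 0.509 in the vehicle libraries, and it was as low against the 5 Mb on each side, at 0.363 and 0.372 in the dDAVP libraries and 0.323 and 0.436 in the vehicle libraries. Peaks covered 0.540% and 0.512% of the Snrpn window after dDAVP and 0.441% and 0.486% after vehicle, against 15.2% and 8.23% of the Nnat window after dDAVP and 19.9% and 11.7% after vehicle. Mest had 14 regions, and its ratio lay between 0.574 and 0.847 over the libraries. Peg10 had 13 regions and Grb10 33, both below 1 in all libraries against the chromosome. The comparison region mattered for these: against the 5 Mb on each side, Grb10 was at 1.60 and 1.77 in the dDAVP libraries and 1.19 and 1.05 in the vehicle libraries. Peg10 was there at 1.45 and 1.46 in the dDAVP libraries and 1.51 and 0.567 in the vehicle libraries. Igf2, with 11 regions, was above 1 in both replicate 1 libraries and below it in both replicate 2 libraries against the chromosome, and below 1 in all 4 against its surroundings (0.842 and 0.358 after dDAVP, 0.831 and 0.554 after vehicle).

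**Figure D3:**
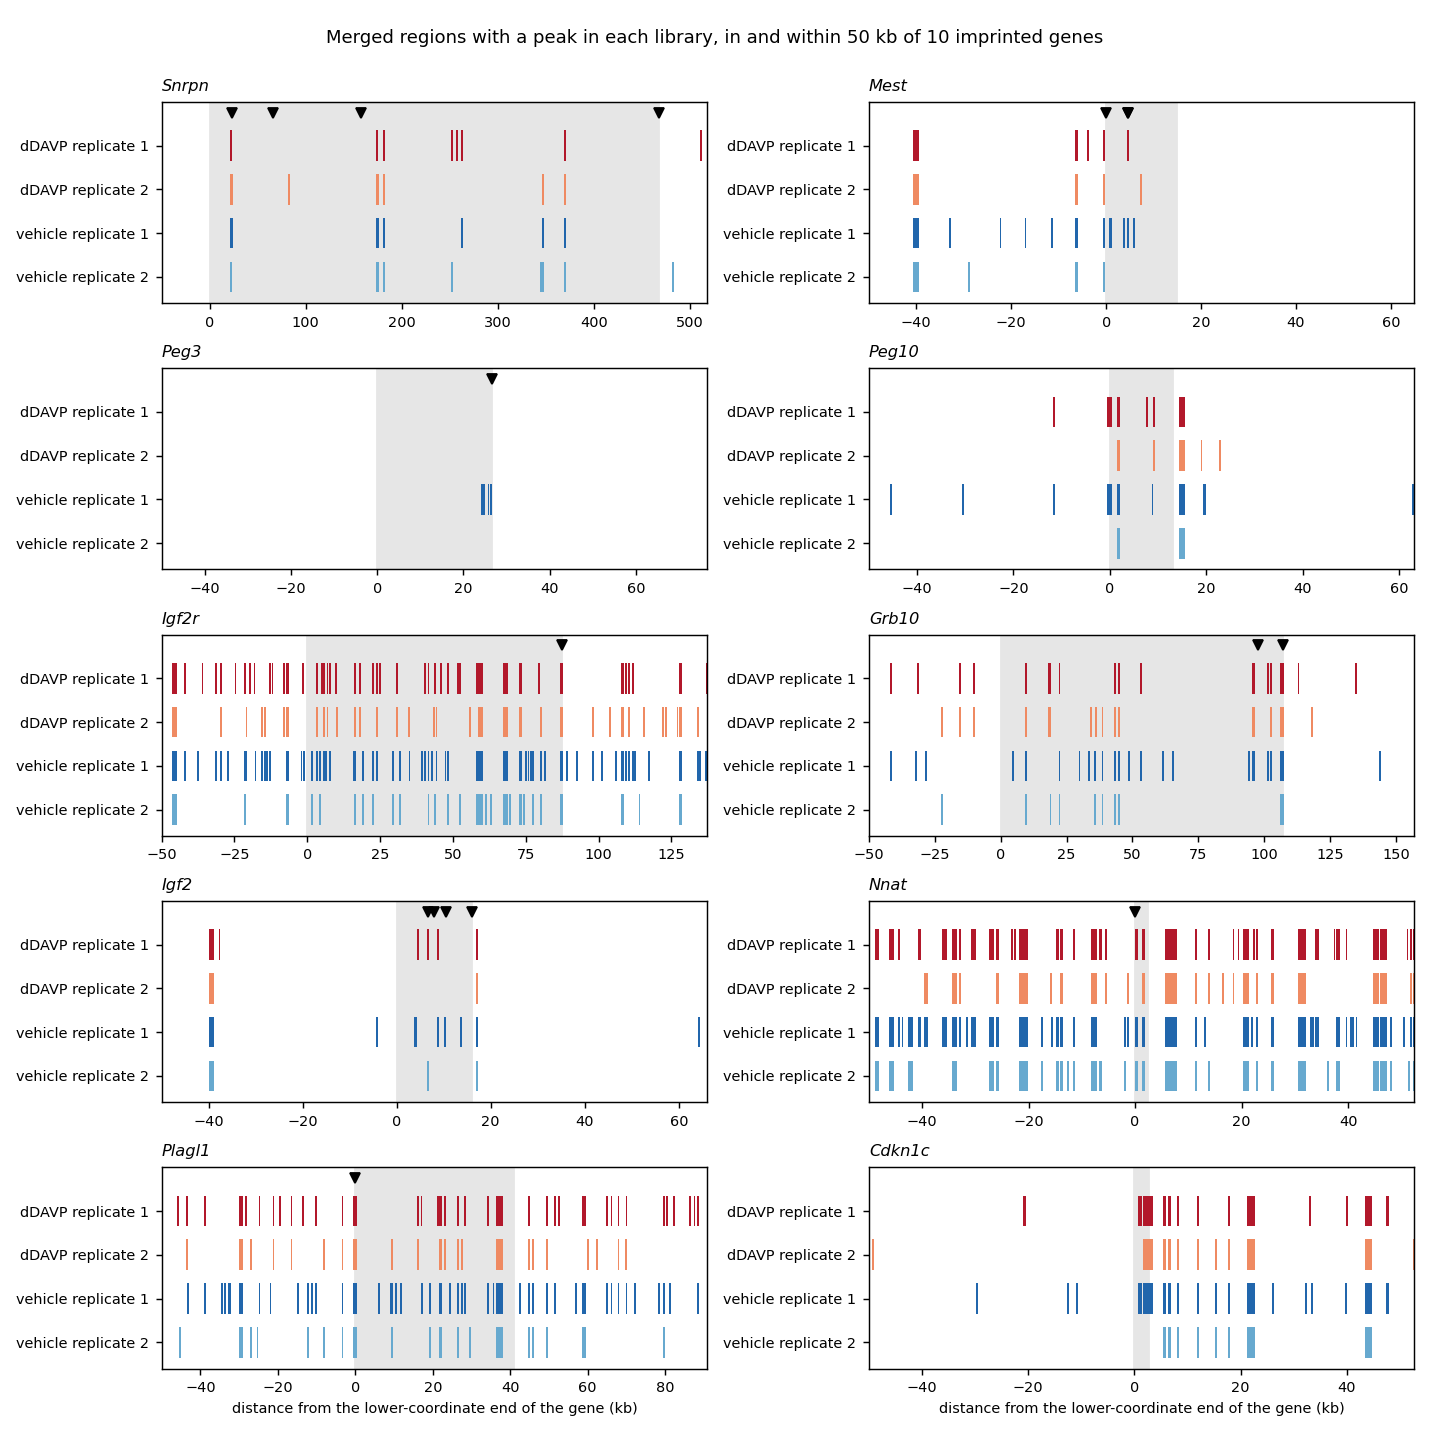
Regions with a peak in each library (coloured bars), by distance in kb from the lower-coordinate end of each gene, with the gene body in grey and triangles at annotated starts. The Igf2r, Plagl1 and Nnat windows are filled with regions, Snrpn has few over a long gene, and the 4 regions of Peg3 are in vehicle replicate 1 alone.

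The third comparison concerned how widely each region was shared. Of the 339 regions 55 were present in all 4 libraries (16.2%), 35 in 3 (10.3%), 79 in 2 (23.3%) and 170 in 1 (50.1%). Over all merged regions the shares were 15.7%, 11.4%, 19.7% and 53.1% in the same order, so the share in all libraries was close. Regions in all libraries had a median width of 829 bp and those in 1 library of 158.5 bp, against 770 and 153 bp over the genome. Vehicle replicate 1 alone accounted for 91 of the 170 single-library regions (53.5%), dDAVP replicate 1 for 42, dDAVP replicate 2 for 23 and vehicle replicate 2 for 14. Regions of both replicate 1 libraries and no other numbered 33, and those of both replicate 2 libraries and no other 3. The replicate 1 list was the longer in each treatment, and whether these counts by library differ from those over the genome was not tested. By position, 112 regions lay inside the member gene away from starts, 49 inside another protein-coding gene, 145 outside protein-coding genes and 33 at an annotated start of any gene (9.73%, against 4.57% of all regions). Among regions in all libraries 13 of 55 were at a start (23.6%, against 14.9% of all such regions). The windows were drawn around genes and so hold gene starts by design, unlike the genome as a whole. These shares were not compared with those in windows of other protein-coding genes.

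**Figure D4:**
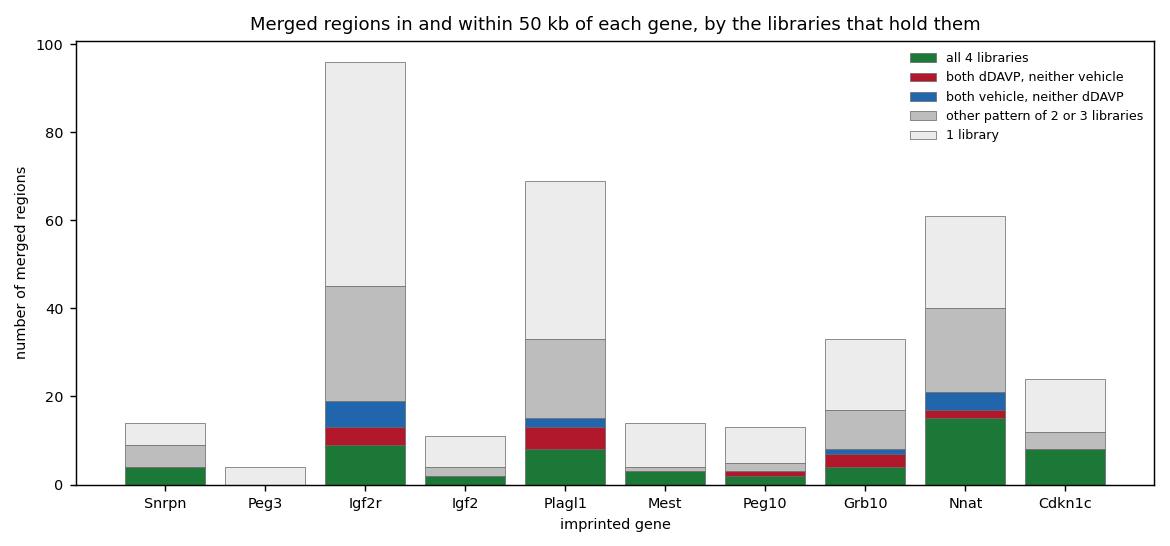
Number of merged regions in each window (bar height from 0), divided by the libraries that hold them. Regions of 1 library make up the largest class at Igf2r (51 of 96) and Plagl1 (36 of 69), and Nnat has the most regions in all libraries (15).

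In the windows of Igf2r, Nnat, Mest, Cdkn1c and Igf2 the widest region found in all libraries lay away from the start of the named gene. In the Igf2r window it was chr17:12635983-12637650, outside protein-coding genes and 51794 bp from the nearest start, that of Slc22a2, with widths of 1646 and 1647 bp after dDAVP and 1649 and 1580 bp after vehicle. A second wide one, chr17:12749464-12751371, lay inside Igf2r between the starts of Airn and the receptor, with 1580 and 1440 bp after dDAVP and 1003 and 1411 bp after vehicle. Both dDAVP widths of this second region were above both vehicle widths (log2 difference, dDAVP minus vehicle, 0.41, SE 0.36, not called after adjustment). Around Nnat the widest was chr2:157565628-157567879 over the start of the host gene Blcap, with 1818 and 1644 bp after dDAVP and 2191 and 2252 bp after vehicle. Both vehicle widths were above both dDAVP widths there, with a log2 difference, dDAVP minus vehicle, of -0.33 (SE 0.28, limma adjusted p = 1.00). The widest around Mest was at the start of Cep41, chr6:30692903-30694081 (1126 and 885 bp after dDAVP, 886 and 1145 bp after vehicle). Around Cdkn1c it was at the start of the imprinted growth regulator Phlda2, chr7:143501701-143503063 (1323 and 509 bp after dDAVP, 1220 and 1197 bp after vehicle). Around Igf2 it was chr7:142610817-142611841, at the far edge of the window (613 and 539 bp after dDAVP, 493 and 385 bp after vehicle). Both dDAVP widths were above both vehicle widths there (log2 difference 0.49, SE 0.28, not called after adjustment).

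In the Plagl1 and Snrpn windows the widest region lay inside the gene. It was chr10:13127146-13128972, 36314 bp from the start, in Plagl1 (1720 and 831 bp after dDAVP, 1827 and 962 bp after vehicle) and chr7:60162807-60163866 in Snrpn (1060 and 958 bp after dDAVP, 982 and 965 bp after vehicle). The Snrpn region lay 22582 bp from the nearest of its starts and was about as wide as the start peaks of Igf2r and Plagl1. At Grb10 it was the outer start itself, chr11:12036631-12037867 (1012 and 708 bp after dDAVP, 1192 and 808 bp after vehicle). Beside Peg10 it was chr6:4761649-4762885, 1132 bp from its upper end, with 164 and 410 bp after dDAVP and 746 and 817 bp after vehicle. Both dDAVP widths were below both vehicle widths there, with a log2 difference of -1.48 (SE 0.60, limma adjusted p = 0.985). Peg3 had no region in all libraries.

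The fourth comparison, the one the study was designed for, set dDAVP against vehicle. The 10 windows held 180 and 129 peaks after dDAVP and 240 and 120 peaks after vehicle. The means were 154.5 ± 36.1 after dDAVP and 180 ± 84.9 after vehicle (SD, n = 2 each), a ratio of 0.858 with a two-sided exact permutation p of 1, where 2 against 2 libraries cannot give less than 0.333. The vehicle libraries lay on both sides of the dDAVP libraries, and without vehicle replicate 1 the ratio was 1.29. As a share of each list, the windows held 0.0618% and 0.0627% of peaks after dDAVP and 0.0609% and 0.0580% after vehicle (exact permutation p = 0.333). Both dDAVP shares were above both vehicle shares, which gives the smallest p this design allows. In each of the 10 windows the peak counts of the treatments overlapped, with an exact permutation p of 0.667 or 1.

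Regions with a peak in both libraries of a treatment and neither of the other were few. Of the 339 regions 15 were in both dDAVP libraries alone (4.42%), against 1.61% of all merged regions and 1.59% of those on the same chromosomes. Another 13 were in both vehicle libraries alone (3.83%), against 3.35% and 3.24%. The higher dDAVP-only share depended on narrow peaks. Among peaks of median width or wider in each library, 2 regions were dDAVP-only (1.12%, against 1.74% of all regions so filtered), and with every list cut to its widest peaks at the length of the shortest, 7 were (2.75%, against 2.75%). Windows of 25 kb and 100 kb on each side of the gene kept it, with 14 (5.91%) and 17 (2.81%) dDAVP-only regions against 1.61% of all regions. None of these regions lay within 1 kb of an annotated start. The dDAVP-only regions had a median width of 264 bp (range 128 to 440) and the vehicle-only regions one of 356 bp (range 176 to 859). Regions present in 2 libraries of any kind had a median of 311 bp in the windows and 313 bp over the genome. The treatment-specific regions thus lay on both sides of that median. They fell in 5 windows, Igf2r, Plagl1, Grb10, Nnat and Peg10, and the windows of Snrpn, Peg3, Igf2, Mest and Cdkn1c had none of either kind.

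Inside Igf2r the 3 dDAVP-only regions were chr17:12689061-12689307, chr17:12700210-12700649 and chr17:12712758-12712972. The 6 vehicle-only regions, all inside Igf2r, were chr17:12683848-12684328, chr17:12686413-12686635, chr17:12701121-12701833, chr17:12711381-12711640, chr17:12714020-12714375 and chr17:12759642-12759862. The 2 kinds were mixed along the gene, with chr17:12700210-12700649 (179 and 411 bp after dDAVP, none after vehicle) next to chr17:12701121-12701833 (none after dDAVP, 704 and 187 bp after vehicle). At Plagl1 the 5 dDAVP-only regions were chr10:13047151-13047304, chr10:13069500-13069890 and chr10:13074136-13074420 before the gene, and chr10:13106834-13107138 and chr10:13113653-13113826 inside it. The vehicle-only ones were chr10:13078304-13078733, 12099 bp from the start, and chr10:13109893-13110329 inside the gene. The one inside the gene had no peak after dDAVP and 313 and 437 bp after vehicle.

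At Grb10 the dDAVP-only regions were chr11:11914738-11915135, chr11:11919987-11920162 and, inside the gene, chr11:11948343-11948653, with 270 and 268 bp after dDAVP, and the vehicle-only region was chr11:11965862-11966116. Near Nnat, chr2:157554499-157554762, 5316 bp from the start, was dDAVP-only with 256 and 213 bp, and so was chr2:157578373-157578708. The vehicle-only regions there were chr2:157517492-157518350, the widest of all at 859 and 217 bp after vehicle, chr2:157542424-157542802, chr2:157607991-157608166 and chr2:157558053-157558248. The last lay inside Blcap at 1830 bp from the Nnat start, the nearest of all these regions to a member's annotated start. Within Peg10 chr6:4756267-4756453 was dDAVP-only, with 72 and 127 bp, where 72 bp is the narrowest peak of any list.

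Widths of shared regions were compared with limma on the log2 scale. No region passed an adjusted p of 0.05, among 88231 tested (0%) or among the 55 of the 10 windows, where the lowest adjusted p was 0.870. Unadjusted p was below 0.05 at 3 of the 55 (5.45%), near the 5.28% of all regions tested. The median log2 difference, dDAVP minus vehicle, was 0.06 over the 55 and 0.04 over all, with 30 of the 55 wider and 25 narrower after dDAVP. The 3 regions were 1 in Igf2r and 2 beside Nnat. In Igf2r, chr17:12755134-12756136, 13570 bp into the gene, had 782 and 389 bp after dDAVP and 78 and 74 bp after vehicle (log2 difference 2.93, SE 0.41, limma unadjusted p = 0.00202, adjusted p = 0.870). The narrowest peak of every list was 72 bp. Both vehicle widths at this Igf2r region were near that minimum, and its log2 difference rests on them. Beside Nnat, chr2:157525716-157526654 had 159 and 114 bp after dDAVP and 575 and 779 bp after vehicle (log2 difference -2.21, SE 0.40, adjusted p = 0.870). The second, chr2:157538336-157539891, had 246 and 179 bp after dDAVP and 1556 and 482 bp after vehicle (log2 difference -2.01, SE 0.61, adjusted p = 0.908). At all 3 the groups did not overlap, which picking regions by unadjusted p favours, and none is a call after adjustment.

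**Figure D5:**
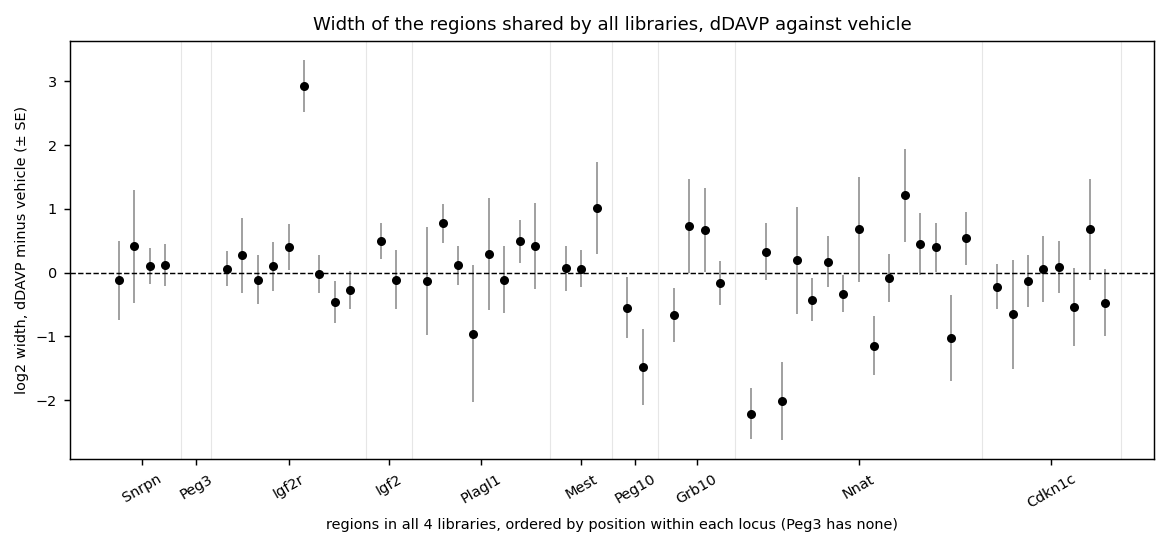
Log2 width difference, dDAVP minus vehicle, with its standard error (bars) for the 55 regions present in all libraries, in order of position within each window. Most lie near 0, with 1 region in Igf2r at 2.93 and 2 beside Nnat at -2.21 and -2.01.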

How the data were processed

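The authors deposited 1 peak list per library that gives each peak's chromosome, start and end, without a header, score or depth. Per the submitters' processing notes the build was mm10 and the tools included MACS2, Bowtie2, cutadapt, Picard, SAMtools and bedtools. Not given in the sources used here are versions, settings, the peak threshold and any Tn5 shift, and whether list length follows depth was not tested.

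Treatment and replicate number came from the sample titles. Peaks were merged at 1 bp or more of overlap, coordinates are 1-based, and a region's width in a library is the summed width of its peaks. Gene positions are RefSeq's on GRCm38.p6, and starts those of the promoter table (8 of 10 members and 79.9% of protein-coding genes), otherwise either outermost gene end. Expected peaks came from the density of the same chromosomes outside the windows. Exact permutation tests were used for peak numbers, and limma 3.58.1 (R 4.3.3) on quantile-normalized log2 widths with Benjamini-Hochberg adjustment over all 88231 regions. Scripts used Python 3.11.15, NumPy 2.4.6 and pandas 2.3.3, and the steps were tested on simulated data.

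Named are the 10 members, their start regions, their widest region in all libraries, every treatment-specific region except 1 that is not reported here, and of other lists the genes open in no library and up to 4 with the widest start peaks. Further regions, and the motifs, were chosen with values or sequences in view. The members and lists were chosen with earlier results of these data known.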

Additional observations from a re-analysis of the deposited data

How the results depend on the processing

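The counts depended on which peaks were kept. Keeping each library's peaks of median width or wider gave 2 dDAVP-only regions (1.12%, against 1.74% of all regions, below rather than above it), 6 vehicle-only regions (3.35%, against 3.36%) and 3 genes with a start peak in all libraries (against 58.3% of protein-coding genes). With each list cut to its widest peaks 7 regions were dDAVP-only (2.75%, against 2.75%) and 8 vehicle-only (3.14%, against 3.01%), and the ratio of peak numbers was 1.00. Requiring an overlap of 50% left 9 dDAVP-only regions (1.88%, against 1.54%), and windows of 100 kb gave 20 vehicle-only regions (3.31%, against 3.35%). Start windows of 0.5 kb and 2.5 kb gave 3 and 8 open genes, and a peak in 1 library or more, added after seeing the data, gave 10, against 79.5% of protein-coding genes. Leaving out dDAVP replicate 1, dDAVP replicate 2, vehicle replicate 1 or vehicle replicate 2 turned the dDAVP-only count to 42, 57, 26 and 17 in that order, where fewer libraries define the class. These are 13.6%, 18.0%, 10.2% and 5.18% of the regions in the windows, against 9.74%, 15.8%, 7.55% and 2.85% of all regions. The vehicle-only count turned to 30, 19, 29 and 106, or 9.71%, 5.99%, 11.4% and 32.3%, against 8.74%, 5.60%, 13.9% and 32.7%. With a library left out, 5 to 7 genes were open, and the share of all protein-coding genes was not computed there. The ratio of peak numbers ranged from 0.644 to 1.29 and reversed without vehicle replicate 1. The mean density ratio stayed above 1 in every alternative tried (mean log2 0.06 to 0.47), the 5 Mb comparison included, which was also added after seeing the data (0.24), and no width passed under any of them. No label states that equal replicate numbers mark pairs. Deviations in quantile-normalized width correlated at r = 0.0969 over the 88231 regions in all libraries. This check leaves out presence and absence of peaks, so it cannot settle whether the libraries are pairs. With a replicate block the ratio of peak numbers was 0.858 (exact paired permutation p = 1) and 0 widths passed. Unknown depth limits all counts of absent peaks. Of the values for single windows and lists, 54 moved and 150 did not.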

Other observations

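Mest and Igf2 each host a microRNA, which the account of gene starts did not cover. The mature arms are printed from RefSeq on GRCm38.p6, with the seed (bases 2 to 8) in capitals, to show what lies at these intragenic sites.
mmu-miR-335-5p: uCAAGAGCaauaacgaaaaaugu
mmu-miR-335-3p: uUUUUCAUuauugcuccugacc
mmu-miR-483-5p: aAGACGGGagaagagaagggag
mmu-miR-483-3p: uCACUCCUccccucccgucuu
No seed is shared among them. The arm miR-335-5p, at chr6:30741314-30741336 on the plus strand within Mest, lay 585 bp from the nearest region, present in 1 library, and 7984 bp from the nearest region present in all libraries. The arm miR-483-5p, at chr7:142654968-142654989 on the minus strand within Igf2, lay inside chr7:142654541-142655028, a peak of 488 bp in vehicle replicate 1 alone, and 12699 bp from the nearest region of all libraries. Neither microRNA locus thus had a region shared by all 4 libraries nearby in these lists.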
